A study of Mus musculus with 18 samples.

Results

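Immediate early genes are transcribed within minutes of a stimulus, without new protein synthesis, when calcium and MAP kinase signals reach transcription factors already bound to their promoters. Many encode transcription factors: the Fos and Jun proteins pair into the dimer AP-1, Egr1 and Egr3 are zinc finger factors, Npas4 is a factor induced by calcium entry in neurons, and Nr4a1 is an orphan nuclear receptor. Others act directly, such as Arc, which regulates AMPA receptor trafficking at synapses, and Dusp1, a phosphatase that switches MAP kinases off. In the hippocampus these genes are widely used as markers of neuronal activity, and a seizure induces them within the hour.

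The values of 10 such genes were examined in the epileptic mouse hippocampus: Fos, Fosb, Fosl2, Junb, Egr1, Egr3, Npas4, Nr4a1, Arc and Dusp1. They were chosen by name from a list of immediate early genes, with earlier results of these libraries known. All 10 were found among the 55291 gene symbols of the deposited tables, each with at least 1 count in all 18 libraries. By GENCODE M21 (GRCm38), Fos lies at chr12:85473890-85477273, Fosb at chr7:19302696-19310051, Fosl2 at chr5:32135801-32157842, Junb at chr8:84974484-84978718 and Egr3 at chr14:70077203-70082614. Npas4 lies at chr19:4984355-4990316, Nr4a1 at chr15:101254269-101274795, Arc at chr15:74669083-74672570 and Dusp1 at chr17:26505590-26562128.

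Male C57BL/6J mice, 6 weeks old, received an adeno-associated virus in the right CA3 that expressed EGFP-Rpl10a, a GFP-tagged ribosomal protein, under the astrocyte promoter GfaABC1D, so every group carried the tag. The KA group was injected with kainic acid, a glutamate receptor agonist that causes seizures, into the right dentate gyrus 2 weeks after the virus, and RNA was taken 14 days later. The PBS group had saline in place of kainic acid, and the AAV control group had the virus alone, with RNA taken 2 weeks after it. In each group 3 samples, each pooling the right hippocampi of 3 to 4 mice, gave an IP library, of RNA precipitated with the tagged ribosomes, and an input library, of RNA from the whole homogenate. Library totals ran from 9281256 to 16032180 counts in IP and from 7991681 to 12587839 in input. KA and AAV control samples 1 and 2 were sequenced in 1 run, their samples 3 in another, and all PBS samples in a further run, so that PBS and its run cannot be told apart. The P values below measure the spread between pooled samples.

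The astrocyte label was checked against markers. The summed FPKM (fragments per kilobase of gene, scaled to library size) of 8 astrocyte genes was 2873 to 6179 in the IP libraries and 369 to 1018 in the input libraries. The pan-neuronal sum was lower in IP than in input, but these markers were not absent from IP. The 8 pan-neuronal genes summed to 790 to 1160 over the input libraries. In IP they summed to 152 to 215 in AAV control, 236 to 388 in PBS and 261 to 343 in KA. The sum of 8 dentate granule cell genes was 24.7 to 33.5, 21.8 to 37.5 and 34.7 to 64.8 in the same order. For 8 oligodendrocyte genes it was 256 to 1068, 286 to 575 and 1343 to 2541, so KA IP libraries lay above every control IP library. Against AAV control, the pan-neuronal, dentate and oligodendrocyte sums were higher in KA IP without overlap, beside the IP differences below. Against PBS only the oligodendrocyte sum of these 3 did not overlap. The sum of 7 CA pyramidal cell genes lay the other way, at 32.7 to 50.6 in AAV control, 34.6 to 68.8 in PBS and 19.8 to 24.5 in KA IP. For 8 interneuron genes it was 210 to 303, 220 to 528 and 312 to 3087, and 1462 to 2502 in KA input. By gene, the median log2 difference, IP against input, of tested dentate genes was -1.25 in AAV control, -0.92 in PBS and 0.04 in KA. The part of these markers in the results was not tested. In bulk RNA, more cells of a type and more RNA per cell cannot be told apart.

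**Figure D1:**
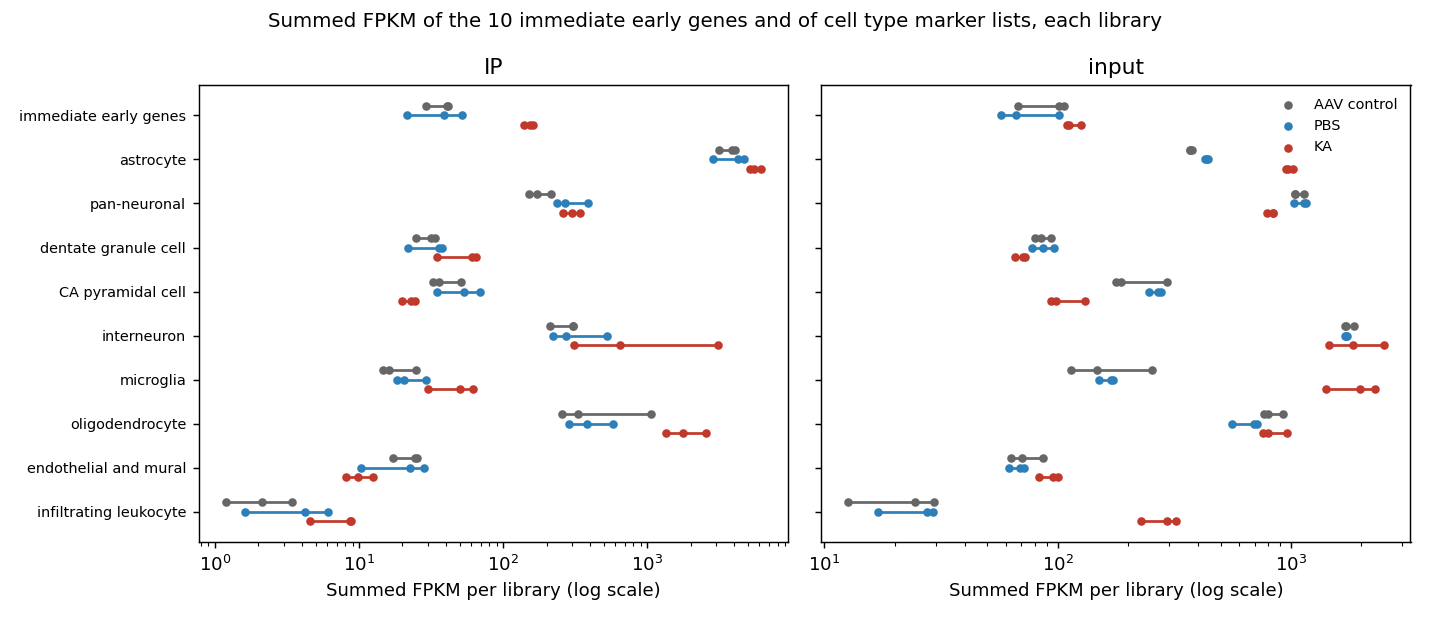
Summed FPKM (log scale) of the 10 immediate early genes and of the cell type marker lists in each library, IP at the left and input at the right, with a line from the lowest to the highest of 3 libraries per group. In IP the immediate early gene sum was 139 to 161 with KA and 21.5 to 51.4 over the 6 control libraries. The oligodendrocyte, microglial and astrocyte sums also lay higher with KA, and the CA pyramidal cell sum lower. By gene, the astrocyte list did not follow its sum, with 1 of 8 higher and 3 lower against each control. Its median log2 difference in IP was -0.33 against AAV control and -0.23 against PBS.

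The sequence before the start site was read for the members in a RefSeq promoter table (GRCm38.p6), which held 7 of them. The letters TGACG, the core that the calcium-responsive factor CREB binds, were searched on both strands over the 250 bases before the start. They stood in 6 of these 7 windows, all but that of Fosl2, and in 17.8% of 32851 promoters of the same length. A match of letters is a description and not a binding site. The stretches of Fos, Fosb and Junb, which differed in IP, and of Dusp1, which did not pass the threshold in any comparison, are shown on the gene's strand, with capitals at TGACG read on either strand. For Dusp1 only the bases from -250 to -51 are shown, counted from the RefSeq start, which lies inside the GENCODE span of the gene.
Fos, chr12:85473640-85473889, plus strand: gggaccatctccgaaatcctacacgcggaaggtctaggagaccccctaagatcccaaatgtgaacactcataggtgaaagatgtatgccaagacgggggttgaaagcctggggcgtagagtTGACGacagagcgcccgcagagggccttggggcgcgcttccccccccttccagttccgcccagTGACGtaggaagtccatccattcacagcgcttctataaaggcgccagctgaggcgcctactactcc
Fosb, chr7:19310046-19310295, minus strand: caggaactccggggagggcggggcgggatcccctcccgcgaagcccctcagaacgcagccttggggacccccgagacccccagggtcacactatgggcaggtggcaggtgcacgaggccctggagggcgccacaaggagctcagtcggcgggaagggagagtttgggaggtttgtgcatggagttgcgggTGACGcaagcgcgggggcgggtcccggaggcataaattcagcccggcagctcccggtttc
Junb, chr8:84978749-84978998, minus strand: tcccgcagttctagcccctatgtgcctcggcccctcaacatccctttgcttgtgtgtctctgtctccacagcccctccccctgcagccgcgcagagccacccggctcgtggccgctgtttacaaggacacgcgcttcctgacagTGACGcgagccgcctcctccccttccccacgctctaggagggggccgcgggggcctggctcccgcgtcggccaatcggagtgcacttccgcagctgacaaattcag
Dusp1, chr17:26508523-26508722, minus strand: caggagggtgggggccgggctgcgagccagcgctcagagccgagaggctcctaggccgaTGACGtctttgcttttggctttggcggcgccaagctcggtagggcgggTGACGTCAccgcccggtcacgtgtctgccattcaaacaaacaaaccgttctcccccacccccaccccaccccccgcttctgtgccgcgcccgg
In the Dusp1 stretch, the bases from -143 to -136 spell the full palindrome TGACGTCA, which stood in 1.55% of all promoters and in no other of the 7. Fos held TGACG at -129 and at -66 and a TATAAA box at -33. Fosb held it at -60 and Junb at -106. The motifs AP-1 TGANTCA, EGR GCGTGGGCG and NBRE AAAGGTCA and the CArG box of serum response factor, each searched on both strands, stood in none of the 7 windows and in 6.75%, 0.536%, 1.34% and 1.47% of all promoters. A window without these letters says nothing of more distant sites.

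The first question was whether these genes differed between KA and control in ribosome-bound RNA of tagged cells. In 7 of the 10 members, Fos, Fosb, Fosl2, Junb, Egr1, Npas4 and Nr4a1, every KA IP library was above all 6 control IP libraries, where 5.32% of genes with any value above 0 did so. Arc was above every AAV control IP library, as were 9.31% of genes, but overlapped PBS, and Egr3 and Dusp1 overlapped both controls.

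The AP-1 subunits come first. Fos, which pairs with Jun proteins and is the classical marker of recent activity, stood at 42.01, 35.1 and 40.4 FPKM in KA IP samples 1, 2 and 3. In AAV control IP the values were 5.64, 4.802 and 4.25, and in PBS IP 4.33, 3.09 and 6.93. The lowest KA library was thus several times the highest control library. By edgeR's quasi-likelihood test with Benjamini-Hochberg adjustment over all genes tested, Fos was 8.37-fold higher than in AAV control (log2 3.07 ± 0.184 SE, adjusted p = 1.33e-04) and 8.43-fold higher than in PBS (log2 3.08 ± 0.2404, adjusted p = 1.89e-05).

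Junb, a Jun family partner of Fos, had 47.8, 44.9 and 35.9 FPKM in KA IP, 8.64, 8.73 and 6.95 in AAV control IP and 7.87, 5.76 and 8.64 in PBS IP. It was the highest member in KA IP by mean FPKM (42.9 ± 6.23, SD, n = 3), next to Fos (39.2 ± 3.64), and these 2 overlapped. Its log2 fold change was 2.46 ± 0.155 against AAV control (adjusted p = 1.71e-04) and 2.54 ± 0.175 against PBS (adjusted p = 8.92e-06). The Junb locus overlaps Prdx2 on the opposite strand, and whether the counting used strand is not given in the sources used here, so that reads of the overlap cannot be assigned. Prdx2 had 5170 to 6404 counts in the KA IP libraries and 3775 to 7090 in the control IP libraries. Junb had 711 to 963 and 119 to 228. The part of the overlap in the Junb values was not tested.

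Fosl2, also called Fra-2 and typical of sustained AP-1, had 6.43, 6.65 and 5.26 FPKM in KA IP, 0.969, 0.691 and 0.2096 in AAV control IP and 0.683, 0.407 and 0.649 in PBS IP. All 6 control libraries were below 1 FPKM, the minimum that the test required in every compared library. Its value therefore comes from a fit with no FPKM filter, beside which edgeR's own count filter was run after the data were seen. The log2 fold change of Fosl2 was 3.46 ± 0.268 against AAV control (adjusted p = 3.37e-35, and 0.00135 with the count filter) and 3.60 ± 0.258 against PBS (adjusted p = 3.23e-41 and 1.40e-07). The unfiltered fit drew each gene's spread almost wholly to a common value, and its p-values were far smaller. Both adjusted p-values are therefore given for each member call that rests on it.

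Fosb, the subunit whose truncated form accumulates with repeated stimulation, was the lowest member in each IP group by mean FPKM; the gene counts cannot tell that form from the full one. It reached 0.503, 0.738 and 1.096 FPKM in KA IP, against 0.104, 0.117 and 0.02500 in AAV control and 0.09000, 0.01400 and 0.137 in PBS IP. These rest on 35 to 75 counts per KA library and 1 to 9 per control library. Log2 fold changes were 3.45 ± 0.505 against AAV control (adjusted p = 5.41e-10, and 0.00508 with the count filter) and 3.52 ± 0.462 against PBS (adjusted p = 1.90e-12 and 4.49e-04).

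Egr1, a zinc finger factor induced through MAP kinase signalling, had 16.1, 17.2 and 22.3 FPKM in KA IP, 4.74, 4.43 and 2.75 in AAV control IP and 2.67, 1.62 and 5.74 in PBS IP. Its log2 fold change was 2.31 ± 0.255 (adjusted p = 0.00124) against AAV control and 2.55 ± 0.348 (adjusted p = 5.10e-04) against PBS. Egr3, of the same family, did not follow it. Its FPKM was 11.1, 9.304 and 7.33 in KA IP, 10.9, 9.97 and 3.72 in AAV control IP and 11.6, 2.62 and 8.43 in PBS IP, so the 3 groups overlapped. The log2 differences of Egr3 were 0.25 ± 0.331 (adjusted p = 0.638) and 0.32 ± 0.3697 (adjusted p = 0.524).

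Npas4, which in neurons is induced selectively by calcium influx, had 4.08, 1.42 and 3.95 FPKM in KA IP, 0.365, 0.303 and 0.132 in AAV control IP and 0.241, 0.127 and 0.507 in PBS IP. KA sample 2 was the lowest of its group and still above every control. Npas4 gave the largest log2 fold change of the 10 against both controls, 3.75 ± 0.365 against AAV control (adjusted p = 2.22e-22, and 0.00244 with the count filter) and 3.72 ± 0.333 against PBS (adjusted p = 1.40e-26 and 9.59e-05). Its standard errors overlapped those of Fosb and Fosl2. Nr4a1, also named Nur77, had 8.73, 8.81 and 14.6 FPKM in KA IP, 1.38, 1.94 and 1.78 in AAV control IP and 2.06, 1.497 and 4.42 in PBS IP. Its log2 fold change was 2.73 ± 0.321 (adjusted p = 0.00167) against AAV control and 2.09 ± 0.356 (adjusted p = 0.00166) against PBS.

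The effectors differed from each other. Arc had 7.84, 9.55 and 21.8 FPKM in KA IP, with sample 3 far above the other two, 2.93, 3.66 and 3.98 in AAV control IP and 3.45, 2.75 and 9.29 in PBS IP. The log2 fold change of Arc was 1.98 ± 0.449 against AAV control (adjusted p = 0.0197) and 1.45 ± 0.472 against PBS (adjusted p = 0.03404). The first call was lost without AAV control IP sample 1 or 2 (adjusted p = 0.0712 and 0.0674). The second was lost without KA IP sample 3 (log2 0.77, adjusted p = 0.146), PBS IP sample 1 (0.0960) or PBS IP sample 2 (0.105), and with DESeq2 (0.0766). Dusp1 had 8.79, 5.65 and 8.62 FPKM in KA IP, 5.895, 5.87 and 5.37 in AAV control IP and 5.84, 3.65 and 6.65 in PBS IP. KA sample 2 lay inside the control range, and the log2 differences of 0.50 ± 0.227 and 0.55 ± 0.243 did not pass (adjusted p = 0.167 and 0.0982). By its GENCODE span, which reaches upstream of the RefSeq start used above, the Dusp1 locus overlaps 4 other annotated genes, among them Ergic1 on the opposite strand.

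Counted together, 5 of the 7 members tested were past the threshold (adjusted p below 0.05 and at least 2-fold) and higher in KA than in AAV control IP, where 6.39% of 9729 genes were higher by the same rule. Without the FPKM filter it was 8 of 10, against 5.01% of 31675 genes, and with edgeR's count filter also 8 of 10, against 8.04%. Against PBS, 5 of 7 members were higher, against 8.08% of 9847 genes, and 8 of 10 both without the filter, against 5.49%, and with the count filter, against 11%. In the unfiltered fit against PBS the median of all genes lay at -0.56 on the log2 scale. The same KA libraries enter both comparisons, so they are not independent of each other.

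**Figure D2:**
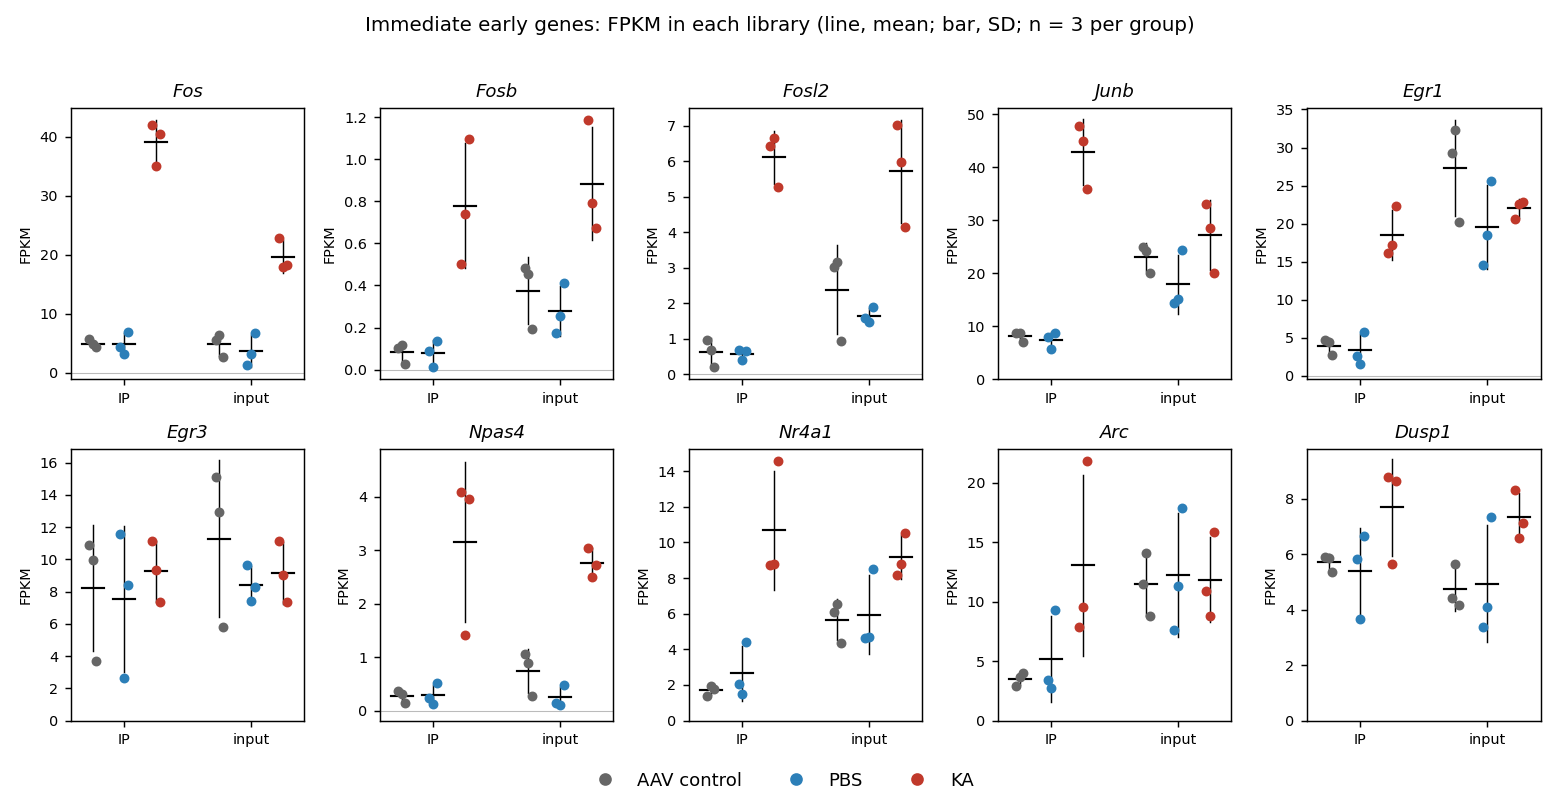
FPKM of each immediate early gene in the 18 libraries, 1 panel per gene with its own axis. Points are libraries, horizontal lines means and vertical lines SD of 3 libraries; Fos in KA IP lay between 35.1 and 42.0, above all control libraries, while Egr3 overlapped in all groups.

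The controls were then set against each other. No member was past the threshold between PBS and AAV control in IP or in input, by the rule that called 0% of genes in each with the FPKM filter and 0.679% and 0.41% without it. In both, the groups overlapped for all 10 members, where 7.53% of genes lay with every PBS IP library above every AAV control one and 3.13% below, and in input 3.59% and 4.96%. The log2 differences in IP ran from -0.26 for Egr1 to 0.63 for Nr4a1. In input the farthest was Npas4 at -1.51 ± 0.442 (adjusted p = 0.0694, and 0.639 with the count filter). Over all genes edgeR called 0 in either kind of RNA, with 1153 genes in IP and 901 in input at an unadjusted p below 0.05, and DESeq2 called 16 and 14. These counts turned on AAV control sample 3: without it edgeR called 546 genes in IP and 365 in input, of which 0 were members.

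In the input, the whole hippocampus, fewer members differed. Fos, Fosb, Fosl2 and Npas4 had every KA input library above all 6 control input libraries, where 7.06% of genes did. Fos had 22.9, 17.8 and 18.3 FPKM in KA input, 5.54, 6.32 and 2.602 in AAV control and 1.35, 3.08 and 6.69 in PBS input. The log2 fold change of Fos was 2.06 ± 0.276 (adjusted p = 0.00616) against AAV control and 2.42 ± 0.336 (adjusted p = 5.93e-04) against PBS. Npas4 had 3.04, 2.49 and 2.73 FPKM in KA input, 1.06, 0.886 and 0.269 in AAV control and 0.144, 0.112 and 0.475 in PBS input. Its log2 fold change, with no FPKM filter, was 1.94 ± 0.294 (adjusted p = 3.34e-08, and 0.0166 with the count filter) against AAV control and 3.47 ± 0.283 (adjusted p = 3.88e-32 and 1.74e-05) against PBS.

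Fosl2 had 7.01, 5.96 and 4.15 FPKM in KA input, 3.03, 3.17 and 0.936 in AAV control and 1.57, 1.47 and 1.89 in PBS input. Against PBS it passed the test with the FPKM filter (log2 1.78 ± 0.157, adjusted p = 2.32e-05). Against AAV control the unfiltered value was 1.27 ± 0.207 (adjusted p = 3.49e-07), a call lost with the count filter (0.0742) and without AAV control input sample 3, where the log2 value fell under the 2-fold threshold, to 0.91. Fosb had 1.19, 0.7901 and 0.675 FPKM in KA input, 0.481, 0.453 and 0.191 in AAV control and 0.175, 0.253 and 0.409 in PBS input. Its log2 value was 1.63 ± 0.307 against PBS (adjusted p = 2.92e-06 and 0.00295 with the count filter). Against AAV control it was 1.24 ± 0.346 (adjusted p = 0.0102), lost with the count filter (0.0772), without AAV control input sample 3 (log2 0.95) and without KA input sample 1 (adjusted p = 0.271).

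The other 6 members were not past the threshold in input against either control. Junb had 33.1, 28.6 and 20.1 FPKM in KA, 24.99, 24.3 and 20.04 in AAV control and 14.3, 15.1 and 24.3 in PBS input, with log2 differences of 0.24 ± 0.165 and 0.60 ± 0.1797. The second had an adjusted p of 0.0302 but was under 2-fold. Egr1, the highest member in AAV control and PBS input by mean FPKM, had 20.6, 22.5 and 22.9 FPKM in KA, 29.3, 32.3 and 20.2 in AAV control and 14.6, 18.5 and 25.6 in PBS input. Its log2 differences were -0.29 ± 0.172 (adjusted p = 0.442) and 0.18 ± 0.146 (adjusted p = 0.399), one below and one above 0.

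Nr4a1 had 8.18, 8.79 and 10.5 FPKM in KA, 6.101, 6.54 and 4.37 in AAV control and 4.62, 4.69 and 8.49 in PBS input. Its log2 difference was 0.72 ± 0.193 against AAV control (adjusted p = 0.0874), where its KA libraries lay above every AAV control library, as did 9.72% of genes, and 0.64 ± 0.204 against PBS (adjusted p = 0.0389, under 2-fold). Arc was at 10.9, 8.82 and 15.8 FPKM in KA, 11.5, 14.1 and 8.79 in AAV control and 7.59, 11.3 and 17.8 in PBS input, and its log2 differences of 0.08 ± 0.268 and -0.02 ± 0.272 lay within 1 SE of 0. Dusp1 was at 8.300, 6.59 and 7.14, 4.42, 5.63 and 4.15 and 3.37, 4.098 and 7.33 FPKM in the same order, with log2 differences of 0.64 ± 0.172 (adjusted p = 0.08699) and 0.58 ± 0.213 (adjusted p = 0.0644). Egr3 was at 11.1, 9.004 and 7.32, 15.1, 12.9 and 5.81 and 9.65, 7.38 and 8.28 FPKM, with log2 differences of -0.28 ± 0.291 and 0.09 ± 0.156.

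Only Fos, 1 of the 7 members tested with the FPKM filter, was past the threshold and higher in KA than in AAV control input, where 2.52% of 10809 genes were. It was 4 of 10 without the filter, against 3.14% of genes, and 2 of 10 with the count filter, against 4.76%. Against PBS it was 2 of 8 members, against 4.26% of 10849 genes, and 4 of 10 both without the filter, against 5.07%, and with the count filter, against 8.09%. Markers also moved in the input. The 8 microglial genes summed to 1419 to 2287 FPKM in KA input and 115 to 254 in AAV control input, the pan-neuronal genes to 790 to 839 and 1041 to 1144, and the part of these shifts in the result was not tested.

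**Figure D3:**
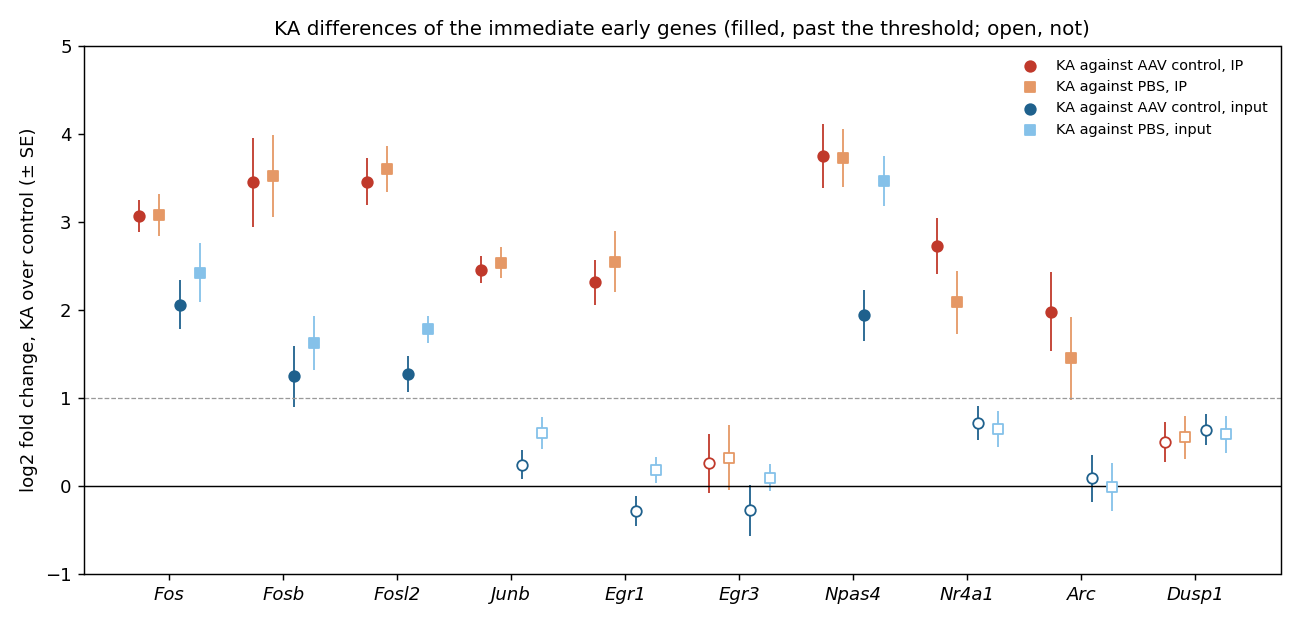
Log2 fold change with its SE for each immediate early gene in KA against AAV control and against PBS, in IP and in input, each from 3 against 3 libraries. Filled points were past the threshold; Fosb, Fosl2 and Npas4 come from the unfiltered fit (Fosl2 against PBS in input excepted), and the filled Fosb and Fosl2 points for AAV control in input were lost with the count filter.

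Next, the IP was set against the input of the same homogenate. In AAV control, Egr1 was at 0.145 ± 0.0144 of its input FPKM (SD, n = 3 pairs), the lowest ratio of the 10, while the median gene was at 0.914. The median gene was at 0.9555 in PBS and 0.872 in KA. The Egr1 pairs gave 0.162, 0.137 and 0.136 in AAV control, 0.183, 0.0875 and 0.224 in PBS and 0.783, 0.764 and 0.975 in KA. Junb gave 0.346, 0.3598 and 0.347, then 0.5499, 0.383 and 0.355 in PBS and 1.45, 1.57 and 1.79 in KA. In both genes each KA pair was above all 6 control pairs, as in 9.42% of the 16968 genes with a value above 0 in every library.

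Fosl2 gave 0.3202, 0.218 and 0.224 in AAV control, 0.434, 0.277 and 0.344 in PBS and 0.917, 1.11 and 1.27 in KA. Nr4a1 gave 0.227, 0.296 and 0.407, 0.446, 0.319 and 0.521 and 1.07, 1.002 and 1.38, and Arc 0.254, 0.2600 and 0.453, 0.455, 0.242 and 0.5202 and 0.719, 1.08 and 1.38. These 3 genes too had every KA pair above every control pair, which makes 5 of the 10 members. Fosb, at 0.215, 0.259 and 0.131 in AAV control, 0.513, 0.0553 and 0.335 in PBS and 0.425, 0.934 and 1.62 in KA, overlapped with PBS.

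Fos had ratios of 1.02, 0.759 and 1.63 in AAV control, 3.19, 1.002 and 1.04 in PBS and 1.84, 1.96 and 2.21 in KA, so that PBS and KA overlapped. The high PBS pair was sample 1, whose input held 32 Fos counts. Npas4 gave 0.344, 0.342 and 0.491 in AAV control, 1.67, 1.13 and 1.07 in PBS and 1.34, 0.569 and 1.45 in KA, on 5 to 35 counts per control input library. Egr3 gave means of 0.711 ± 0.0665 in AAV control, 0.857 ± 0.444 in PBS and 1.011 ± 0.0192 in KA. Dusp1 gave 1.22 ± 0.157, 1.18 ± 0.484 and 1.04 ± 0.176, and by TMM counts 1.39 in AAV control and 1.22 in KA.

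**Figure D4:**
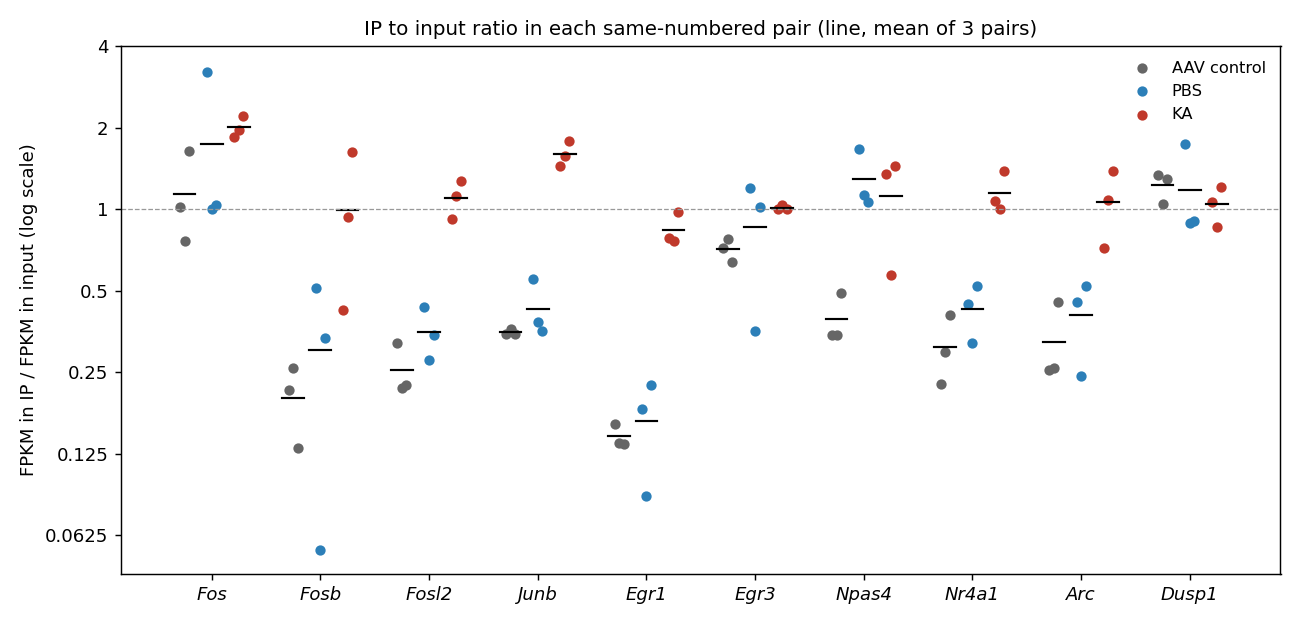
IP FPKM divided by input FPKM (log scale) for each same-numbered pair and gene, with the mean of 3 pairs per condition as a line and a dashed line at 1. Egr1, Junb, Fosl2, Nr4a1 and Arc had every KA pair above all 6 control pairs, as had 9.42% of all genes. The Dusp1 means were 1.04 to 1.22 over the conditions.

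By the count test, Junb, Egr1, Nr4a1 and Arc, 4 of 7 members, were lower in IP than in input in AAV control, with log2 values of -1.36 ± 0.1502, -2.63 ± 0.233, -1.57 ± 0.2295 and -1.53 ± 0.233, where 13.1% of 9961 genes were lower. The same 4 genes were lower in PBS, at -1.13 ± 0.191, -2.48 ± 0.288, -1.07 ± 0.288 and -1.17 ± 0.3297, where 12.3% of 10401 genes were. In PBS the Nr4a1 and Arc calls were lost without PBS IP sample 1, PBS IP sample 2 or PBS input sample 3, and that of Junb without PBS input sample 3, each by falling under 2-fold (log2 -0.80 to -0.98). Fosb and Fosl2 were lower in both controls without the FPKM filter, where 7.45% of genes in AAV control and 6.09% in PBS were. Fosb was at -2.03 ± 0.616 in AAV control (adjusted p = 0.00832, and 0.0246 with the count filter) and -1.77 ± 0.558 in PBS (adjusted p = 0.00844 and 0.0122). Fosl2 was at -1.76 ± 0.316 (adjusted p = 1.99e-06 and 0.0371) and -1.47 ± 0.233 (adjusted p = 5.04e-09 and 4.44e-05). With the count filter 13.8% and 13.4% of genes were lower. Npas4 was at -1.28 ± 0.523 in AAV control (adjusted p = 0.07195, and 0.105 with the count filter), and passed with the replicate pairs as a block (-1.24, adjusted p = 0.00864). In KA 0 of 9 members were lower, where 4.51% of genes were. Fos was higher in KA IP than in KA input, at 1.22 ± 0.149 (adjusted p = 5.75e-04), 1 of 9 members, where 8.11% of 10098 genes were higher, and Junb, at 0.88 ± 0.154 (adjusted p = 0.00331), was under 2-fold.

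Whether the KA difference itself was unequal in IP and input was tested as the interaction of condition and kind of RNA, the KA difference in IP minus that in input. With AAV control as the baseline, Egr1 had 2.63 ± 0.316 (adjusted p = 4.83e-04), Junb 2.24 ± 0.214 (adjusted p = 2.09e-04) and Nr4a1 2.03 ± 0.387 (adjusted p = 0.00506). Arc had 1.92 ± 0.574 (adjusted p = 0.0465), a call that was lost in 7 of the 12 fits that left out 1 library. Those 4 of 7 members compare with 5.1% of 9180 genes that were higher. With PBS as the baseline, Egr1 had 2.37 ± 0.397 (adjusted p = 0.00122) and Junb 1.93 ± 0.254 (adjusted p = 2.57e-04). Nr4a1 had 1.44 ± 0.443 (adjusted p = 0.0292), lost in 6 of 12 such fits. Arc had 1.46 ± 0.621 (adjusted p = 0.0969), and passed with the replicate block (1.40, adjusted p = 0.001501). These 3 of 7 members past the threshold compare with 4.98% of 9305 genes.

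For Fos the interaction did not pass, at 1.03 ± 0.342 (adjusted p = 0.0702) with AAV control and 0.64 ± 0.461 (adjusted p = 0.326) with PBS as the baseline. The first passed with no FPKM filter, with DESeq2, with sequencing run as a covariate, in run 1 alone and without AAV control input sample 3. With the count filter it did not pass, so the call of the unfiltered fit was lost there. With the FPKM filter it also did not pass with RLE size factors, with the replicate block or in any other fit that left out 1 library. Without the filter 2.72% of genes were higher with AAV control and 3.01% with PBS as the baseline. Fosl2, from that fit, passed with both, at 2.19 ± 0.319 (adjusted p = 2.61e-09) and 1.88 ± 0.279 (adjusted p = 3.32e-09), and also with the count filter (adjusted p = 0.0412 and 1.88e-04), by which 4.05% and 5.7% of genes were higher. Fosb, at 2.21 ± 0.607 and 1.92 ± 0.558, passed in the unfiltered fit (adjusted p = 0.00811 and 0.0106), with adjusted p of 0.0731 and 0.0532 under the count filter. Npas4 passed with AAV control as the baseline, at 1.82 ± 0.462 (adjusted p = 0.00311), but not with the count filter (adjusted p = 0.146), and was at 0.29 ± 0.466 with PBS.

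Markers shifted in the same test. Over all genes, 397 were lower and 468 higher of 9180 with AAV control as the baseline, and 826 and 463 of 9305 with PBS. Astrocyte genes were lower in 6 of 8 with AAV control as the baseline (median log2 -1.32) and in 5 of 8 with PBS (-1.25). Pan-neuronal genes were higher in 4 of 8 (1.17) and in 3 of 8 with 1 lower (0.86), and oligodendrocyte genes in 3 of 8 (1.72) and 7 of 8 (1.89). Dentate granule cell genes were higher in 2 of 5 with either baseline (1.22 and 1.12). Interneuron genes were higher in 2 of 6 with 1 lower (1.19) and in 1 of 6 with 1 lower (0.78). CA pyramidal cell genes were higher in 0 of 5 with either baseline, and lower in 0 of 5 (-0.13) and 2 of 5 (-0.70). The part of these shifts in the members' values was not tested.

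Other genes of the same response were counted from lists of names, against the shares of all genes given above: 6.39% higher in IP and 2.52% in input against AAV control, and 8.08% and 4.26% against PBS. Of 19 other immediate early transcription factors, 10 were tested in KA against AAV control IP and 4 were higher, led by Nr4a3 (log2 2.22), Ier5 (2.20) and Ier2 (1.63), with a median over the list of 0.62 and a median over all genes of -0.02. In input it was 0 of 12, and against PBS 5 of 11 in IP and 2 of 12 in input. Of 14 tested immediate early signalling and effector genes, 9 were higher in IP, led by the G protein regulator Rgs2 (4.01), the matricellular gene Ccn1 (2.82) and Arl4d (2.08), and 5 of 13 in input, where Rgs2 was at 2.20 and Ccn1 at 2.51. Against PBS it was 9 of 14 and 6 of 11.

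Delayed activity-regulated genes, a list that runs from secreted neuropeptides and growth factors to the synaptic scaffold Homer1, rose in 7 of 9 tested in IP, among them Scg2 (6.25), the neurotrophin Bdnf (4.78) and Vgf (3.83), and in 7 of 13 in input, led by Scg2 (2.67), Inhba (2.37) and Nptx2 (2.06). Against PBS it was 6 of 7 and 8 of 13. MAP kinase feedback genes were higher in 4 of 8 tested in IP, among them Dusp14 (2.14), Spry1 (1.58) and Dusp6 (1.18), and in 0 of 10 in input, but against PBS in 2 of 6 in IP and in 2 of 11 in input. Upstream regulators were higher in 3 of 23 in IP, Mef2c (2.21), Map2k1 (1.19) and Crem (1.13), with a median of 0.21, and in 0 of 25 in input. Against PBS they were higher in 3 and lower in 1 of 24 in IP, and higher in 1 and lower in 1 of 25 in input.

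Of 15 AP-1 dimer partners beyond the members, 7 were tested with the FPKM filter in IP against AAV control and 0 passed, with Jun at 0.22 ± 0.193 and Jund at 0.87 ± 0.363. Without the filter 6 of the 15 were higher, where 5.01% of genes were. Against PBS in IP, 2 of 7 were higher, among them Jund at 1.07. Without the filter it was 7 of the 15, against 5.49% of genes. Both counts of the 15 rest on the unfiltered fit alone, whose p-values were far smaller. In input 1 of 10 was higher against AAV control and 1 of 9 against PBS. The heat shock list, which responds to tissue handling, had 2 of 6 higher in IP against AAV control, Hsph1 (1.61) and Hspa8 (1.15), and 1 of 6 against PBS, Hsph1 (1.85). In input it had 0 of 6 against either, and the part of handling was not tested.

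Likeness was measured as the root mean square difference between a member's 6 group means of log2(FPKM + 1), centred, and those of 15998 genes. Nearest to Fos was Lce1g (0.202), to Fosl2 Gsto1 (0.1196), to Junb C2cd4b (0.152), to Egr1 Bok (0.155), to Nr4a1 Nell1 (0.118) and to Arc Galnt18 (0.0943). For the others it was Gdpd5 for Fosb (0.0515), Gosr1 for Egr3 (0.0355), Gm14706 for Npas4 (0.140) and Dtx3l for Dusp1 (0.0518). No member was the nearest gene of another. The closest pair of members was Fosb and Dusp1, 0.2103 apart, with Dusp1 at rank 607 among the genes nearest to Fosb. The group means of Fosb ran from 0.080 to 0.884 FPKM, so the added 1 flattened its profile. By the count tests Fosb differed in KA IP and Dusp1 did not, so this distance does not show a shared response. By rank the nearest was Nr4a1, 20 among the genes nearest to Junb and 0.243 from it.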

How the data were processed

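Ribosome-bound (IP) and whole hippocampal (input) RNA of 18 libraries was analysed. Per the labels and the study's methods, the authors aligned reads to mm10 with STAR, counted them per gene with featureCounts and deposited raw counts and FPKM for each library. Versions, annotation release and strand setting are not given in the sources used here. The deposited FPKM equalled count over library total and a fixed gene length, apart from 30 of 16905 genes that differed by over 1 percent.

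The counts were tested with edgeR 4.0.16 (R 4.3.3; TMM, quasi-likelihood test, Benjamini-Hochberg adjustment) among genes whose FPKM exceeded 1 in all libraries of the comparison, and called at adjusted p below 0.05 and at least 2-fold. Members under that filter took the value of a fit of all genes with at least 1 count. Alternatives were DESeq2 1.42.0, RLE size factors, a replicate block, sequencing run and each library left out. Not planned was edgeR's count filter, added after the data were seen. Also not planned were the unfiltered fits with the replicate block, in run 1 alone and with 1 library left out. The named genes are the 10 members, the gene nearest to each, the 3 largest called genes of each list against AAV control in IP and in input, and genes needed to read a member. Jun, Jund and Hsph1 against PBS were named after their values were seen. The members and lists were chosen with earlier results of these data known. Fits were tested on simulated data. Replicate pairs differed by 4.48 to 109 times the counting variance, so no library was a duplicate. Samples 3 of AAV control and of KA, from another run, stood apart from samples 1 and 2 in IP and input. Pairs with sample 3 differed by 82.2 or more in AAV control and 39.6 or more in KA. Pairs of samples 1 and 2 in these groups differed by 9.59 or less. PBS IP pairs, of 1 run, differed by 55.6 to 81.2.

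Same-numbered KA and AAV control libraries deviated together from their group means (correlations of 0.348 to 0.551). The sequencing runs separate only samples 3 from samples 1 and 2, and same-numbered IP and input came from 1 homogenate. The main count fits did not use this pairing, and among the fits only the replicate block did. PBS shared only numbers with the other groups.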

Additional observations from a re-analysis of the deposited data

Results flagged for a closer look

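The KA difference was larger in IP than in input by the test of that difference itself for 7 members with AAV control as the baseline and for 5 with PBS. With the FPKM filter it was 4 and 3 of 7 members, against 5.1% and 4.98% of genes, and the others come from the unfiltered fit, which called 2.72% and 3.01% higher. With AAV control the log2 interaction was 2.21 for Fosb, 2.19 for Fosl2, 2.24 for Junb, 2.63 for Egr1, 1.82 for Npas4, 2.03 for Nr4a1 and 1.92 for Arc. With PBS it was 1.92 for Fosb, 1.88 for Fosl2, 1.93 for Junb, 2.37 for Egr1 and 1.44 for Nr4a1. The Arc call was lost in 7 of the 12 fits that left out 1 library, and that of Nr4a1 with PBS in 6 of 12. Fosb, Fosl2 and Npas4 come from the fit with no FPKM filter, and under edgeR's count filter Fosl2 kept its call with both baselines, while Fosb and Npas4 did not pass. Pan-neuronal, dentate granule cell and oligodendrocyte marker sums were also higher in KA IP than in AAV control IP, while against PBS IP the pan-neuronal and dentate sums overlapped. The CA pyramidal cell sum was lower in KA IP than in either control. The part of these markers in the members' values was not tested.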

How the results depend on the processing

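Without the FPKM filter, the members past the threshold were 8 in IP against AAV control, 8 against PBS, 4 in input against AAV control, 4 against PBS, and 8 and 6 for the interaction with AAV control and PBS as the baseline. With edgeR's count filter the same counts were 8, 8, 2, 4, 5 and 5. In run 1 alone 2 members passed in input against AAV control. Leaving out 1 library at a time gave 2 to 4 members for IP against input in PBS, where 4 were lower; without PBS input sample 3 only 1 was lower (Egr1), and Fos became a call in the other direction (log2 1.14, adjusted p = 0.0134). With the filter instead of without, the genes called were 1130 against 2823 and 1716 against 5023 in IP against AAV control and PBS, and 292 against 1169 and 580 against 1973 in input. In IP against input they were 2626 against 4965 in AAV control, 2818 against 5736 in PBS and 1274 against 3146 in KA, and for the interaction 865 against 1693 and 1289 against 2635. Leaving out 1 library gave 133 to 588 genes in input against AAV control, highest without AAV control input sample 3, and run 1 alone gave 682. The cause of these shifts was not tested.

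The replicate block left the members past the threshold at 5 in IP against AAV control and moved them to 4 in the interaction with PBS as the baseline. Beyond Npas4 and Arc as given above it changed no other member's call.

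Signs turned only for values that had not passed the threshold. Arc in input against AAV control was at -0.38 in run 1 alone. Egr1 in IP against input of KA was at 0.071 without the FPKM filter and 0.073 with the count filter, and Npas4 in PBS against AAV control IP at 0.042 with the count filter. Dusp1 in the interaction with PBS was at 0.23 without the FPKM filter, 0.18 with the count filter, 0.0031 with RLE size factors and 0.0038 with DESeq2. Leaving out 1 library at a time, Arc ran from -0.26 to 0.28 and -0.35 to 0.28 in input against AAV control and PBS, -0.31 to 0.72 in IP against input of KA, and -0.079 to 0.71 and -0.19 to 0.31 between the controls in IP and input. Egr3 ran from -0.071 to 0.49 and -0.055 to 0.80 in IP, -0.041 to 0.26 in input against PBS, -0.62 to 0.018 and -0.59 to 0.33 in IP against input of AAV control and PBS, -0.11 to 0.73 in the interaction with PBS and -0.61 to 0.26 between the controls in IP. Dusp1 ran from -0.29 to 0.078 and -0.37 to 0.16 in the interactions with AAV control and PBS, and -0.17 to 0.045 and -0.26 to 0.22 between the controls in IP and input. Egr1 in IP against input of KA ran from -0.25 to 0.12. Fos ran from -0.10 to 0.46 in IP against input of AAV control, -0.0059 to 1.03 in the interaction with PBS and -0.28 to 0.10 between the controls in IP. Nr4a1 between the controls in input ran from -0.19 to 0.21.

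Depth limits Fosb and Npas4 most, with 1 to 9 and 6 to 22 counts per control IP library. With 3 samples a group, an exact permutation test cannot give a p below 0.1.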

Other observations

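The make-up of the summed FPKM of the 10 genes differed between the groups. Fos made up 25.1 to 27.4% of it in the 3 KA IP libraries and 11.1 to 14.6% in the 6 control IP libraries. In input, Egr1 made up 16.3 to 20.9% in KA and 25.2 to 30.3% in the 6 control libraries, while Fos made up 16.0 to 18.1% and 2.36 to 6.60%. These shares follow from the values above and were not tested.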
